A study of Mus musculus with 18 samples.

Results

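The genes described here are those of the mitochondrial respiratory chain and ATP synthase that the arrays measured in cultured mouse basophils. Members were the genes whose platform symbol starts with Nduf, Uqcr, Cox4 to Cox8 or Atp5, or is one of Sdha to Sdhd, and that had a probe above background (detection p-value below 0.05) on 3 or more arrays of 18. The array carried 135 such probes for 87 symbols. Of these, 112 probes for 80 genes passed, out of 9973 genes tested in all: 42 of complex I, 3 of complex II, 7 of complex III, 12 of complex IV and 16 of complex V. Of the 80, 73 are subunits or their relatives and 7 are Ndufaf assembly factors. The 7 symbols that did not pass were Ndufaf6, Ndufs1, Sdha, Cox4i2, Cox7b2, Cox8b and Cox8c, whose probes were above background on 0 arrays. Ndufa4, counted with complex I here by its symbol, is held to be a complex IV subunit. Ndufs5-ps is named as a pseudogene of Ndufs5, so its values are uncertain, since its probe may read either copy. Among the genes with these symbols, members were kept by detection and not by any comparison, but the set was chosen with earlier results of these data known. The kept probes nearest the limit were the one of Uqcrfs1, detected on 4 arrays, and a further probe of Ndufab1, on 5, and the nearest probe left out was a further one of Ndufc2, on 2.

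The respiratory chain sits in the inner mitochondrial membrane. Complex I takes electrons from NADH and complex II from succinate, both pass them through ubiquinone to complex III, and cytochrome c carries them on to complex IV, which reduces oxygen. Complexes I, III and IV pump protons, and complex V lets them back through its membrane part to drive ATP synthesis in its F1 head. A few core subunits are encoded by mitochondrial DNA and all others by the nucleus, and several complex IV subunits exist as tissue isoforms. Basophils are rare blood granulocytes that release mediators and cytokines when IgE on their surface is crosslinked or when IL-33 binds its receptor ST2.

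RNA came from bone marrow-derived basophils of C57BL/6J mice aged 4 to 6 weeks. The 6 groups of 3 arrays were ST2KO cells stimulated with IgE for 4 h, ST2KO cells stimulated with IL-33 for 4 h, unstimulated ST2KO cells, WT cells stimulated with IgE for 4 h, WT cells stimulated with IL-33 for 4 h, and unstimulated WT cells. All groups share the culture from marrow, and the labels give neither the culture or sorting steps, the dose or crosslinking of IgE, nor whether the 3 samples of a group came from separate mice, so the p-values cover only the variation among these samples, possibly technical. ST2KO cells lack ST2, encoded by Il1rl1. The annotation paired 0 probes with Il1rl1, so the targeted gene gives no check of the genotype. Of 9 basophil markers 8 were detected on all 18 arrays, and the lymphocyte markers and 3 of 4 eosinophil markers on 0. Markers of other types were present too. On all 18 arrays 3 of 6 mast cell, 2 of 4 macrophage and monocyte, and 2 of 4 erythroid and megakaryocyte markers were detected. The neutrophil marker Mpo was detected on 15 arrays. In bulk RNA, fewer cells of a type and less RNA per cell cannot be told apart. The summed level of 6 mast cell markers on the linear scale was 16288 to 18015 in ST2KO IgE samples against 11915 to 13729 in unstimulated ST2KO samples, and 16025 to 18068 in WT IgE samples against 12488 to 15966 in unstimulated WT samples. Of those 6, Mrgprb2 alone had a negative change in each genotype, at -0.40 in ST2KO and -0.26 in WT cells. The level of the 1 eosinophil marker detected was 123 to 136 in ST2KO IgE samples against 285 to 385 in unstimulated ST2KO samples, and 120 to 684 in WT IgE samples against 137 to 703 in unstimulated WT samples. The sum of 4 erythroid and megakaryocyte markers was 2883 to 3271 in ST2KO IgE samples against 3612 to 4773 in unstimulated ones, and 2843 to 3660 in WT IgE samples against 3035 to 5176 in unstimulated ones. Of those 4, Hba-a1 changed by -2.99 in ST2KO and -2.89 in WT cells, and Pf4 by -1.18 and -0.60. Klf1 went the other way, at 0.15 in ST2KO and 0.25 in WT cells, as did Itga2b, at 0.22 and 0.19. The sum of 2 dendritic cell markers, each detected on 5 arrays, was 54.2 to 70.1 in ST2KO IgE samples against 39.9 to 43.3 in unstimulated ones, and 63.3 to 91.4 in WT IgE samples against 41.8 to 42.0 in unstimulated ones. For 4 macrophage and monocyte markers the sum was 3240 to 4103 in ST2KO IgE samples against 4019 to 4818 in unstimulated ones. In WT cells it was 3838 to 4758 after IgE against 4526 to 5487 without. Of those 4, Csf1r and C1qa had positive changes in each genotype, and Adgre1 and Mrc1 negative ones. The sum of 5 neutrophil markers was 108 to 175 in ST2KO IgE samples against 122 to 224 in unstimulated ones. In WT cells it was 133 to 240 after IgE against 258 to 325 without. Of those 5, Camp changed by 0.12 in ST2KO and -0.20 in WT cells, and the others had negative changes in each genotype. The part of these shifts in the IgE results was not tested.

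One array stood apart for these genes. On the array of unstimulated WT replicate 2, 67 of the 80 members were lower than the mean of the other 2 unstimulated WT arrays, by a median of 0.48 log2 units, and 38 were lower by more than 0.5. Over all genes the median difference of that array was -0.02, and 6.61% were lower by more than 0.5. The gap was widest for small subunits: Ndufa3 lay 1.55 log2 units below, Cox7a1 1.34, Uqcr11 1.31, Ndufa5 1.30 and Ndufa1 1.28. The median of 52 ribosomal protein genes was 0.33 lower on it. A pair of IL-33 arrays leaned the same way: the median member was 0.21 below the other 2 arrays of its group on ST2KO IL-33 replicate 2, with 22 members lower by more than 0.5 beside 2.76% of all genes, and 0.21 below on WT IL-33 replicate 2, with 5 members beside 6.89% of all genes. The cause was not tested. Counts of members called after IgE in WT cells are therefore given with and without replicate 2, and so are the values of single genes where leaving it out ended a call or moved the value by more than 1.5 times.

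**Figure D1:**
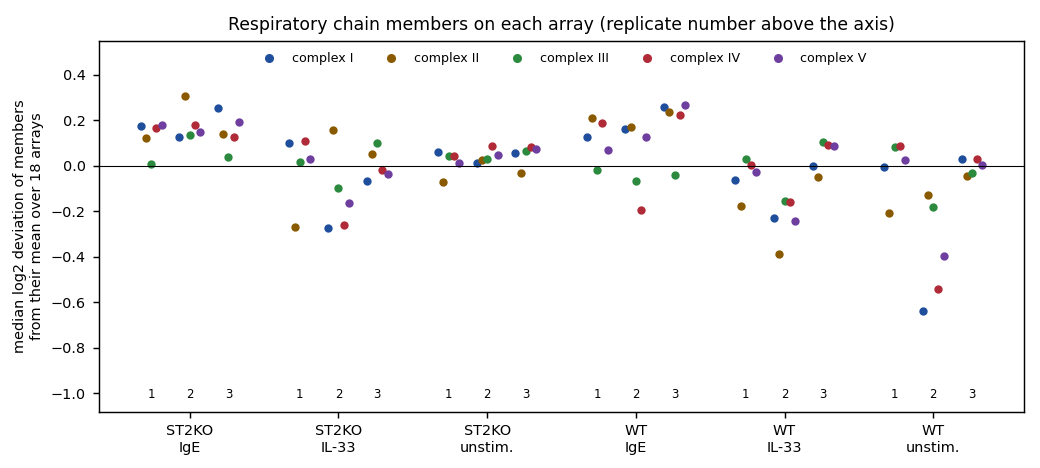
Median log2 deviation of the members of each complex (points, coloured by complex I to V) from each gene's mean over the 18 arrays, by array within the 6 groups; the number above the axis is the replicate. On unstimulated WT replicate 2 the members of complexes I, IV and V lie lowest of all arrays, and all ST2KO unstimulated arrays lie near 0.

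IgE changed the level of members in both directions. After IgE, 15 of the 80 members rose and 13 fell in ST2KO cells, and 32 rose and 9 fell in WT cells (limma, adjusted p under 0.05 over all genes tested). Of the members above background before and after IgE, the complex I assembly factor Ndufaf4 had the largest rise in each genotype and Cox7a2l, counted here with complex IV, the largest fall. Cox6a2 also fell, to a level not above background, so that only a bound on its fall is known. Complexes I, III, IV and V each held members called higher and members called lower in at least 1 genotype.

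The same comparisons called many of all genes. In ST2KO cells 49.2% of the genes tested were called, 22.8% higher and 26.4% lower, so that the 28 of 80 members were fewer than in the array at large. In WT cells 47.0% were called, 22.7% higher and 24.3% lower, and the 41 of 80 members lay near that share but leaned upward. The median log2 change of the members was 0.14 in ST2KO cells, with 55 of 80 above 0, and 0.35 in WT cells, with 60 above 0, beside an all-gene median of -0.02 in each. Without unstimulated WT replicate 2 the WT counts became 19 higher and 11 lower, the WT median 0.12, and 49 of 80 lay above 0, with 20.5% of all genes higher and 23.1% lower. Of the 41 members called in WT cells with all arrays, 28 were also called without that array, in the same direction, 19 higher and 9 lower. In ST2KO cells the split of calls depended on the scaling: median scaling gave 9 higher and 13 lower.

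The 2 genotypes share no arrays. Of the members called higher, 14 were called in both genotypes, which is 93.3% of those in ST2KO cells and 43.8% of those in WT cells. Of the members called lower, 9 were shared, 69.2% of those in ST2KO cells and 100% of those in WT cells. Over all genes 83.0% of ST2KO and 83.2% of WT rises were shared, and 78.5% of ST2KO and 85.5% of WT falls. These shares use all arrays. Of the 32 WT rises of members 19 were also called without unstimulated WT replicate 2. Of the 14 shared rises Sdhb alone lost its WT call without that array. No member was called in opposite directions, and 69 of 80 had the same sign. The calls of 14 members held in both genotypes under all 31 alternative settings tried: Ndufaf4, Ndufb6, Ndufab1, Cox7a2, Cox5a, Atp5j and Atp5pb were higher, and Cox7a2l, Cox6a2, Ndufa6, Ndufaf7, Uqcrq, Ndufv1 and Cox4i1 were lower.

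**Figure D2:**
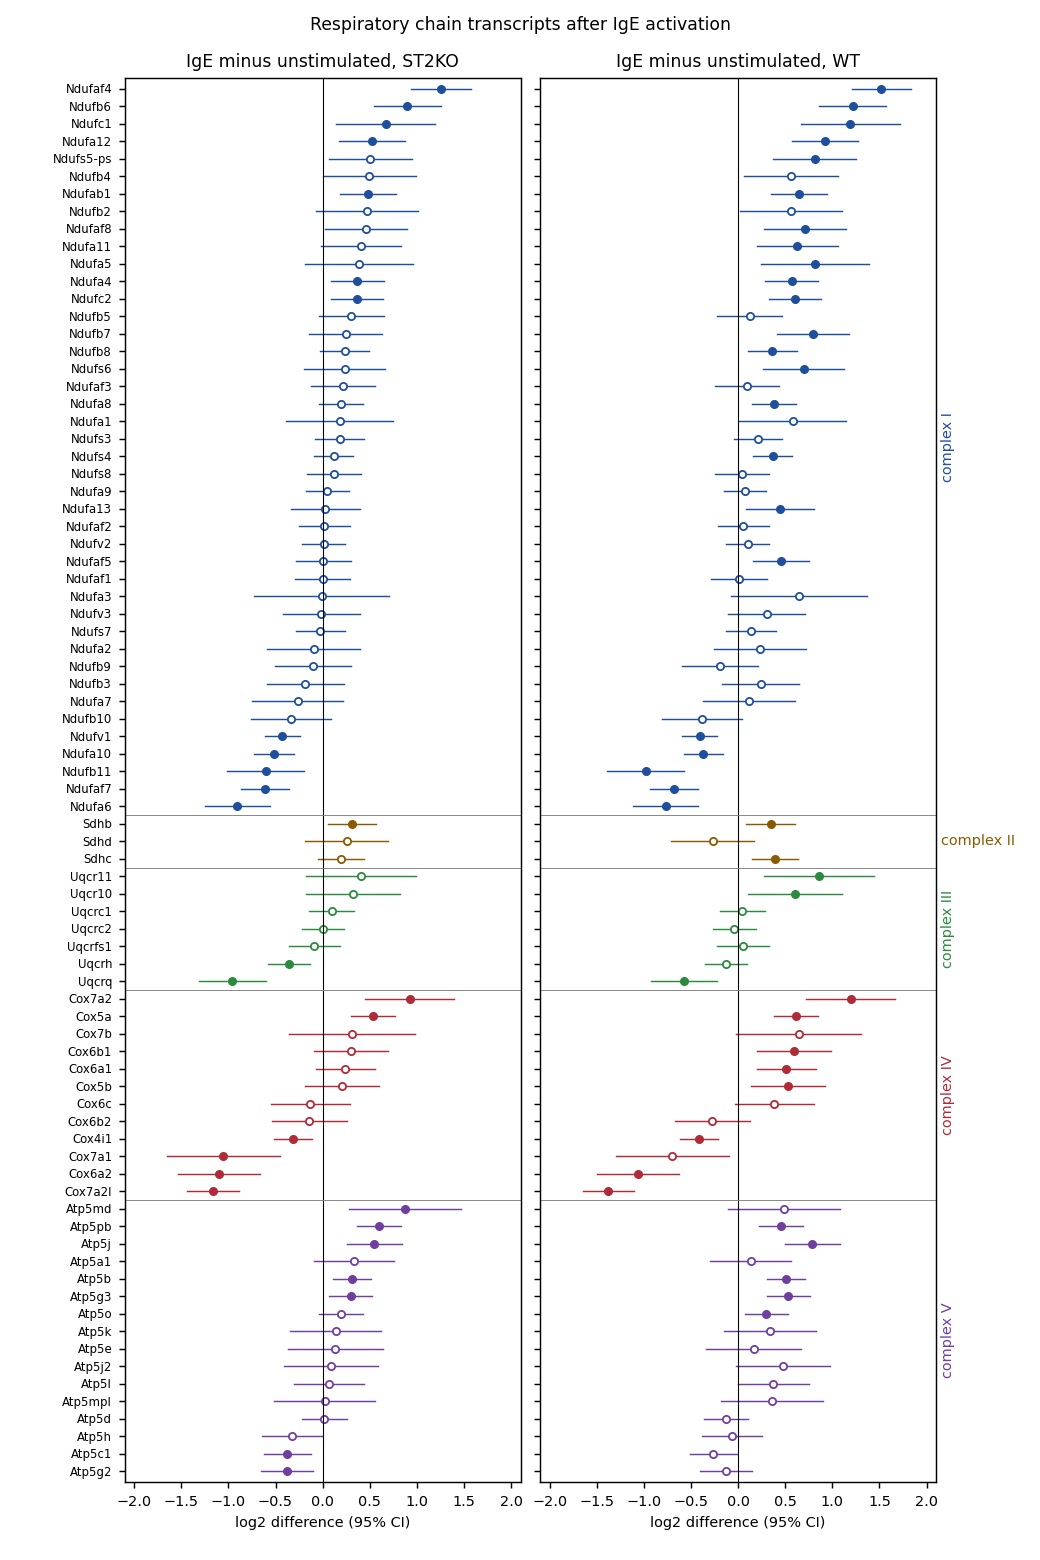
Log2 difference, IgE minus unstimulated, of all 80 members with its 95% confidence interval, in ST2KO cells (left) and WT cells (right), grouped by complex and sorted by the ST2KO value; filled points passed the test. Cox7a2 and Ndufaf4 lie far to the right and Cox7a2l and Cox6a2 far to the left in both panels, while the open points of WT cells sit further right than those of ST2KO cells.

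Promoter sequences of Ndufaf4 and Cox7a2l are shown, because known regulators of nuclear respiratory genes bind close to the start. Each run is the 150 bases before the RefSeq start on GRCm38.p6, on the strand of the gene, with a match to the NRF1 motif, GCGC followed by any base and TGCGC, in capitals. The first is chr4:24897933-24898082 on the plus strand and the second chr17:83514334-83514483 on the minus strand.
Ndufaf4: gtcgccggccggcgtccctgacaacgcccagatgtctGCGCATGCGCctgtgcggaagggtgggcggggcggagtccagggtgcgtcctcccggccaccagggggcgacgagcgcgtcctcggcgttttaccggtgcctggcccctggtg
Cox7a2l: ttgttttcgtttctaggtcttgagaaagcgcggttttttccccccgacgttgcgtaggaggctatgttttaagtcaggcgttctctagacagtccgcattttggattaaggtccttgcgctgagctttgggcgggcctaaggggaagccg
The riser holds 1 match and the other gene holds none of the 3 motifs searched. They had the largest mean IgE change each way among members with a window that were called alike in both genotypes. No other such member held a motif in the 150 bases of its first window. Windows of 250 bases before to 50 after the start were at hand for 69 of the 80 members and were searched on both strands for the NRF1 motif, the ETS motif CCGGAAG bound by GABP, and the YY1 motif AAGATGGCG. A gene with several windows was counted once, where any of them held a match. NRF1 matches were found for 17 of 69 members (24.6%) and for 5.19% of all 27025 genes with a window. ETS matches were found for 18 members (26.1%) beside 9.93% of all genes, and YY1 matches for 8 (11.6%) beside 1.64%. Among the 14 members higher in both genotypes 2 held an NRF1 match (14.3%), 3 an ETS and 2 a YY1 match. Among the 6 members lower in both that had a window 1 held an NRF1 match (16.7%) and 0 either of the others. The NRF1 shares of both sets lay below the 24.6% of all members. These are counts of letters in a window and say nothing of binding.

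In complex I genes rose and fell in both genotypes. In ST2KO cells 7 of its 42 genes rose and 5 fell, and in WT cells 18 rose and 5 fell (12 and 6 without unstimulated WT replicate 2). Counts for this complex and those below stand beside the shares of all genes. These were 22.8% higher and 26.4% lower in ST2KO cells, and 22.7% higher and 24.3% lower in WT cells. The WT shares without that array are given above. Of 29 accessory subunits, which surround the catalytic core, 6 rose and 3 fell in ST2KO cells, and 14 rose and 3 fell in WT cells, 9 and 4 without that array. Of the 7 assembly factors 1 rose and 1 fell in ST2KO cells, and 3 rose and 1 fell in WT cells, 2 and 1 without that array. The 5 core subunits measured were Ndufs3, Ndufs7, Ndufs8, Ndufv1 and Ndufv2. Of these 0 rose and 1 fell in each genotype, and in WT cells also without that array.

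Ndufaf4 is an assembly factor of complex I. Its normalized log2 intensity was 8.44, 8.46 and 8.23 in ST2KO IgE samples, against 6.96, 7.33 and 7.06 in unstimulated ST2KO samples. It was 8.70, 8.18 and 8.32 in WT IgE samples, against 6.80, 6.82 and 7.02 in unstimulated WT samples. Every IgE array lay above every unstimulated array, and the log2 change was 1.26 ± 0.15 (SE, adjusted p = 2.2e-06) in ST2KO cells and 1.52 ± 0.15 (SE, adjusted p = 2.7e-07) in WT cells, which is 2.39-fold in ST2KO and 2.87-fold in WT cells. A second, dimmer Ndufaf4 probe changed by 0.29 (adjusted p = 0.32) in ST2KO cells and 0.70 (adjusted p = 0.017) in WT cells. Ndufaf7, another complex I assembly factor, went the other way. It read 6.54, 6.63 and 6.64 in ST2KO IgE samples, against 7.20, 7.20 and 7.24 in unstimulated ones, and 6.60, 6.72 and 6.29 in WT IgE samples, against 7.11, 7.30 and 7.23 in unstimulated ones. Again no IgE array overlapped an unstimulated one. The change of Ndufaf7 was -0.61 ± 0.12 (SE, adjusted p = 4.2e-04) in ST2KO cells and -0.68 ± 0.12 (SE, adjusted p = 1.7e-04) in WT cells.

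Ndufb6, an accessory subunit of the membrane arm, read 11.57, 11.38 and 11.61 in ST2KO IgE samples, against 10.64, 10.69 and 10.53 in unstimulated ones. In WT cells it read 11.51, 11.23 and 11.59 after IgE, against 10.45, 9.79 and 10.44 without. The second of those unstimulated WT values comes from the low array, and IgE arrays lay above unstimulated arrays with or without it. Ndufb6 rose by 0.90 ± 0.17 (SE, adjusted p = 2.6e-04) in ST2KO cells and 1.22 ± 0.17 (SE, adjusted p = 1.3e-05) in WT cells, and by 0.998 (adjusted p = 4.9e-05) in WT cells without that array. Ndufc1, a small membrane subunit, read 10.80, 10.63 and 10.75 in ST2KO IgE samples, against 10.10, 10.10 and 9.98 in unstimulated ones, and 10.63, 10.63 and 10.81 in WT IgE samples, against 9.81, 8.73 and 9.95 in unstimulated ones. It rose by 0.67 ± 0.25 (SE, adjusted p = 0.034) in ST2KO cells and 1.19 ± 0.25 (SE, adjusted p = 7.5e-04) in WT cells, or 0.81 (adjusted p = 0.0023) without unstimulated WT replicate 2. Leaving out any 1 of the 6 ST2KO arrays ended the ST2KO call, with adjusted p between 0.054 and 0.090. Ndufab1, the mitochondrial acyl carrier protein that also sits in complex I, rose by 0.48 ± 0.14 in ST2KO cells and 0.65 ± 0.14 in WT cells, and its 3 further probes were higher too. Ndufa12 and Ndufa4 rose in both genotypes as well, Ndufa12 by 0.52 in ST2KO cells and 0.93 in WT cells, and Ndufa4 by 0.37 in ST2KO cells and 0.57 in WT cells. Without unstimulated WT replicate 2 the WT changes were 0.65 (adjusted p = 1.6e-04) for Ndufa12 and 0.36 (adjusted p = 0.0076) for Ndufa4. Under median scaling the ST2KO call of Ndufa12 ended, at 0.45 (adjusted p = 0.055), as did those of Ndufc1, Ndufa4, Sdhb and Atp5g3. The Ndufa4 call in ST2KO cells ended without any 1 of 5 of the 6 ST2KO arrays, with adjusted p between 0.060 and 0.084, and was kept without unstimulated replicate 2.

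Among the falls, Ndufv1, the core subunit that binds NADH and flavin, read 10.27, 10.28 and 10.29 in ST2KO IgE samples, against 10.73, 10.70 and 10.70 in unstimulated ones. It read 10.15, 10.33 and 10.26 in WT IgE samples, against 10.69, 10.66 and 10.61 in unstimulated ones. The groups did not overlap, with a change of -0.43 ± 0.09 (SE, adjusted p = 5.7e-04) in ST2KO cells and -0.41 ± 0.09 (SE, adjusted p = 9.5e-04) in WT cells. Ndufa6, an accessory subunit of the matrix arm, read 12.15, 12.09 and 12.37 in ST2KO IgE samples, against 13.11, 13.16 and 13.04 in unstimulated ones, and 12.05, 12.01 and 12.03 in WT IgE samples, against 13.08, 12.32 and 12.996 in unstimulated ones. Here the low array works against the difference: the change was -0.90 ± 0.16 (SE, adjusted p = 1.8e-04) in ST2KO cells, -0.77 ± 0.16 (SE, adjusted p = 8.5e-04) in WT cells, and -1.01 (adjusted p = 1.0e-05) in WT cells without it. Ndufb11, a membrane-arm subunit, read 5.86, 5.62 and 5.99 in ST2KO IgE samples, against 6.26, 6.44 and 6.59 in unstimulated ones, and 5.92, 5.16 and 5.75 in WT IgE samples, against 6.45, 6.35 and 6.98 in unstimulated ones. Its change was -0.61 ± 0.19 (SE, adjusted p = 0.015) in ST2KO cells and -0.98 ± 0.19 (SE, adjusted p = 4.4e-04) in WT cells, and the ST2KO call ended without unstimulated replicate 3, at -0.53 (adjusted p = 0.064), or without IgE replicate 2, at -0.50 (adjusted p = 0.07). Ndufa10, another accessory subunit, fell by 0.51 in ST2KO cells and by 0.37 in WT cells on the log2 scale. When only the compared groups were fitted, its WT call ended (-0.37, adjusted p = 0.053), as did those of Sdhb, Uqcr10, Uqcr11, Cox6a1 and Cox6b1 and the ST2KO call of Atp5g3.

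Complex II was measured through 3 of its 4 genes, since the Sdha probe was not above background. Sdhb, the iron-sulphur subunit, read 9.94, 10.16 and 9.88 in ST2KO IgE samples, against 9.58, 9.76 and 9.70 in unstimulated ones, and 9.98, 9.91 and 9.97 in WT IgE samples, against 9.53, 9.61 and 9.69 in unstimulated ones. The IgE arrays lay above the unstimulated ones in each genotype, by 0.31 ± 0.12 (SE, adjusted p = 0.043) in ST2KO cells and 0.34 ± 0.12 (SE, adjusted p = 0.028) in WT cells. These calls are marginal: leaving out 1 array of ST2KO unstimulated cells, ST2KO IgE replicates 1 or 2, WT IL-33 replicate 1, WT unstimulated replicates 1 or 2, or WT IgE replicates 1 or 3 ended 1 of them, with adjusted p of up to 0.18 in ST2KO cells and 0.089 in WT cells. Without unstimulated WT replicate 2 the WT change of Sdhb was 0.34 (adjusted p = 0.057). Sdhc, a membrane anchor, changed by 0.19 ± 0.11 (SE, adjusted p = 0.18) in ST2KO cells and 0.39 ± 0.11 (SE, adjusted p = 0.0091) in WT cells. Sdhd, the other anchor, changed by 0.25 ± 0.21 (SE, adjusted p = 0.34) in ST2KO cells and -0.27 ± 0.21 (SE, adjusted p = 0.31) in WT cells.

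Of the 7 complex III genes 0 rose and 2 fell in ST2KO cells, and 2 rose and 1 fell in WT cells, 0 and 1 without unstimulated WT replicate 2. These 7 leave out Cyc1, cytochrome c1 of complex III, whose symbol the rule does not match. It is counted below with the electron carriers. In WT cells Cyc1 changed by 0.57 (adjusted p = 2.4e-04), or 0.62 (adjusted p = 5.2e-04) without that array. Uqcrc1, a core protein, changed by 0.10 ± 0.11 (SE, adjusted p = 0.51) in ST2KO cells and 0.04 ± 0.11 (SE, adjusted p = 0.78) in WT cells, or 0.10 (adjusted p = 0.58) in WT cells without that array. The probe of the Rieske iron-sulphur subunit Uqcrfs1 was detected on 4 arrays and is near background. Uqcrq, which sits beside cytochrome b, read 5.73, 5.49 and 6.07 in ST2KO IgE samples, against 6.48, 6.87 and 6.81 in unstimulated ones. It read 5.84, 5.62 and 6.03 in WT IgE samples, against 6.59, 6.15 and 6.47 in unstimulated ones. Groups did not overlap in either genotype, and Uqcrq changed by -0.96 ± 0.17 (SE, adjusted p = 1.4e-04) in ST2KO cells and -0.58 ± 0.17 (SE, adjusted p = 0.009) in WT cells. Uqcrh, the hinge protein next to cytochrome c1, read 13.01, 13.03 and 13.11 in ST2KO IgE samples, against 13.42, 13.45 and 13.36 in unstimulated ones, and fell there (-0.36 ± 0.11), with -0.13 ± 0.11 (SE, adjusted p = 0.34) in WT cells, or -0.22 (adjusted p = 0.12) there without unstimulated replicate 2. Uqcr10 and Uqcr11, a pair of small subunits at the periphery, passed in WT cells and not in ST2KO cells, and the difference between genotypes did not pass (adjusted p = 0.98 for each). Uqcr11 read 11.37, 11.42 and 11.63 in WT IgE samples, against 11.11, 9.74 and 10.998 in unstimulated ones, where 1 array is more than 1 log2 unit below its fellows. The WT change of Uqcr11 was 0.86 ± 0.28 (SE, adjusted p = 0.017) and 0.42 (adjusted p = 0.11) without unstimulated replicate 2, or 0.78 (adjusted p = 0.059) without IgE replicate 3, and that of Uqcr10 0.60 ± 0.24 (SE, adjusted p = 0.046) and 0.24 (adjusted p = 0.31) without unstimulated replicate 2. The Uqcr10 call ended under 19 of the 31 alternatives, and the ST2KO changes were 0.41 for Uqcr11 and 0.32 for Uqcr10.

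Complex IV genes moved both ways, in places between isoforms of 1 subunit. In ST2KO cells 2 of its 12 genes rose and 4 fell, and in WT cells 5 rose and 3 fell (2 and 4 without unstimulated WT replicate 2). In ST2KO cells the genes that fell included Cox6a2 and Cox7a1, the isoforms known from heart and skeletal muscle, and Cox7a2, the widely expressed partner of Cox7a1, rose. In WT cells Cox6a2 fell and Cox7a2 rose, and Cox7a1 missed the threshold with all arrays.

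Cox7a2l read 11.21, 10.89 and 11.19 in ST2KO IgE samples, against 12.25, 12.29 and 12.24 in unstimulated ones. It read 11.10, 10.71 and 10.65 in WT IgE samples, against 12.18, 12.24 and 12.18 in unstimulated ones. The 6 unstimulated arrays lay between 12.18 and 12.29 and the 6 IgE arrays between 10.65 and 11.21, with a change of -1.16 ± 0.13 (SE, adjusted p = 1.1e-06) in ST2KO cells and -1.38 ± 0.13 (SE, adjusted p = 1.7e-07) in WT cells, which is 2.24-fold lower in ST2KO and 2.60-fold lower in WT cells. Cox7a2 read 7.32, 7.18 and 7.53 in ST2KO IgE samples, against 6.33, 6.47 and 6.46 in unstimulated ones, and 7.52, 6.96 and 7.65 in WT IgE samples, against 6.53, 5.69 and 6.33 in unstimulated ones. It changed by 0.92 ± 0.22 (SE, adjusted p = 0.0024) in ST2KO cells and 1.19 ± 0.22 (SE, adjusted p = 2.8e-04) in WT cells, and by 0.95 (adjusted p = 0.002) in WT cells without the low array. Cox7a1 read 7.23, 6.89 and 7.05 in ST2KO IgE samples, against 8.16, 8.01 and 8.17 in unstimulated ones, and 7.13, 6.91 and 7.04 in WT IgE samples, against 8.05, 6.84 and 8.29 in unstimulated ones. The second unstimulated WT array lay below all 3 WT IgE arrays and the other 2 lay above them. Its change was -1.05 ± 0.28 (SE, adjusted p = 0.0052) in ST2KO cells and -0.70 ± 0.28 (SE, adjusted p = 0.052) in WT cells, which missed the threshold but passed when replicate numbers entered as a block (adjusted p = 0.021) and without unstimulated WT replicate 2, at -1.15 (adjusted p = 3.3e-04).

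Cox6a2 was detected on all 3 arrays of each unstimulated and IL-33 group and on 0 of the 6 IgE arrays. It read 4.48, 4.61 and 4.64 in ST2KO IgE samples, against 5.88, 5.45 and 5.68 in unstimulated ones, and 4.34, 4.46 and 4.65 in WT IgE samples, against 5.83, 5.23 and 5.60 in unstimulated ones. Because the IgE level is not above background, the fold is a bound, set against the lowest signal detected on each array: Cox6a2 was at least 1.81-fold lower in ST2KO IgE cells (adjusted p = 2.7e-04) and at least 1.63-fold lower in WT IgE cells (adjusted p = 3.7e-04). Its widely expressed partner Cox6a1 changed by 0.24 ± 0.15 (SE, adjusted p = 0.20) in ST2KO cells and 0.51 ± 0.15 (SE, adjusted p = 0.0094) in WT cells, with 0.29 (adjusted p = 0.059) in WT cells without unstimulated replicate 2. Of the other pairs, Cox6b1 changed by 0.30 ± 0.19 (SE, adjusted p = 0.19) in ST2KO cells and 0.60 ± 0.19 (SE, adjusted p = 0.014) in WT cells, with 0.30 (adjusted p = 0.082) without that array, and its testis isoform Cox6b2, detected on 9 arrays, passed no test. Cox4i2, Cox8b and Cox8c were above background on 0 arrays. Cox4i1, the common form of subunit IV, read 12.86, 12.78 and 12.95 in ST2KO IgE samples, against 13.18, 13.18 and 13.19 in unstimulated ones, and 12.55, 12.68 and 12.72 in WT IgE samples, against 13.14, 12.92 and 13.16 in unstimulated ones. It changed by -0.32 ± 0.10 (SE, adjusted p = 0.01) in ST2KO cells and -0.42 ± 0.10 (SE, adjusted p = 0.0015) in WT cells. Cox5a, which binds next to it on the matrix side, also passed the test. It read 12.19, 12.17 and 12.03 in ST2KO IgE samples, against 11.55, 11.66 and 11.59 in unstimulated ones, and 12.04, 11.92 and 12.13 in WT IgE samples, against 11.60, 11.27 and 11.38 in unstimulated ones. The rise of Cox5a was 0.53 ± 0.11 (SE, adjusted p = 6.1e-04) in ST2KO cells and 0.62 ± 0.11 (SE, adjusted p = 1.7e-04) in WT cells.

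**Figure D3:**
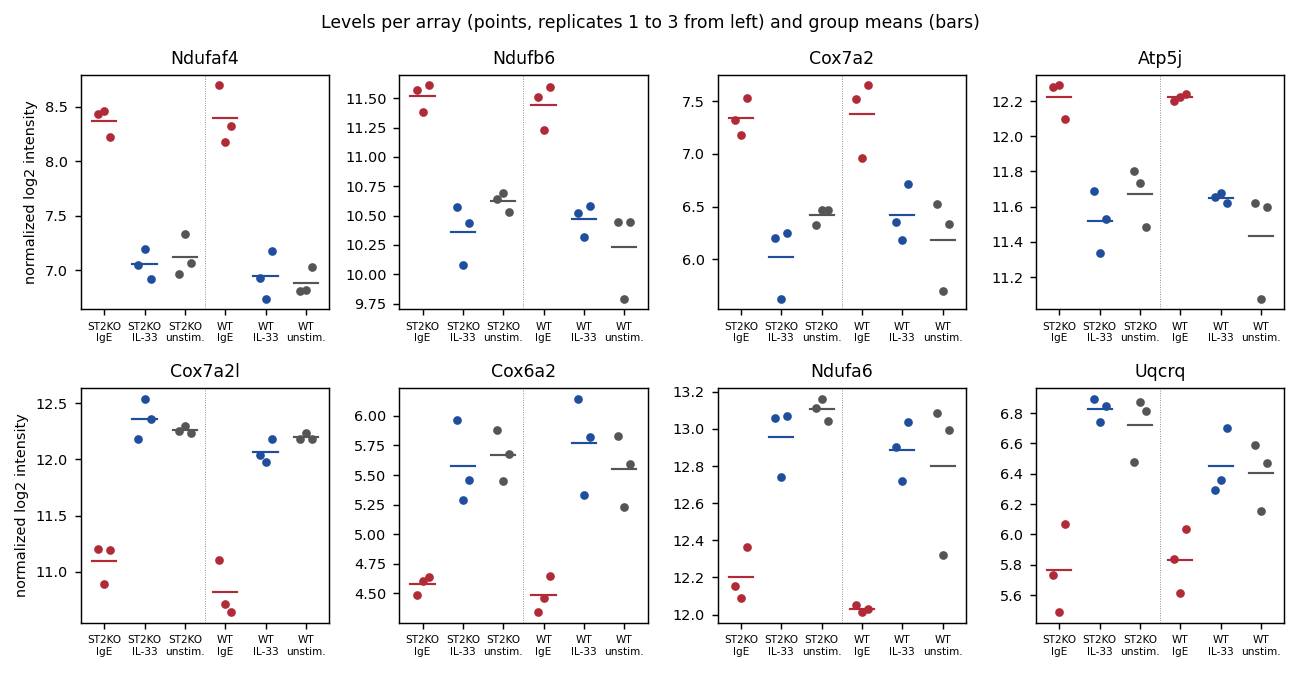
Normalized log2 intensity on every array (points, replicates 1 to 3 from the left) with group means (bars) for 4 members that rose and 4 that fell after IgE in both genotypes, with IgE in red, IL-33 in blue and unstimulated in grey. The red points stand clear of the grey and blue ones in each genotype for Ndufaf4 and Cox7a2l, and the second unstimulated WT point is low for Ndufb6, Cox7a2, Atp5j and Ndufa6. Each panel has its own axis, which does not start at 0.

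In ST2KO cells 5 of the 16 complex V genes rose and 2 fell, and in WT cells 5 rose and 0 fell (4 and 0 without unstimulated WT replicate 2). Of the 5 F1 genes 1 rose and 1 fell in ST2KO cells, and 1 rose and 0 fell in WT cells, with or without that array. Among the 11 genes of the membrane part and stalks, 4 rose and 1 fell in ST2KO cells, and 4 rose and 0 fell in WT cells, 3 and 0 without it.

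Atp5b, the catalytic beta subunit, read 13.21, 13.27 and 13.09 in ST2KO IgE samples, against 12.83, 12.95 and 12.85 in unstimulated ones, and 13.33, 13.21 and 13.27 in WT IgE samples, against 12.68, 12.79 and 12.82 in unstimulated ones. The groups did not overlap, and Atp5b changed by 0.31 ± 0.10 (SE, adjusted p = 0.012) in ST2KO cells, or 0.27 (adjusted p = 0.054) without IgE replicate 2, and by 0.51 ± 0.10 (SE, adjusted p = 3.0e-04) in WT cells. Its partner Atp5a1, the alpha subunit, changed by 0.33 ± 0.20 (SE, adjusted p = 0.19) in ST2KO cells and 0.13 ± 0.20 (SE, adjusted p = 0.63) in WT cells, or 0.21 (adjusted p = 0.49) in WT cells without unstimulated replicate 2. Atp5c1, the gamma subunit that turns inside the head, changed by -0.37 ± 0.12 (SE, adjusted p = 0.015) in ST2KO cells, or -0.32 (adjusted p = 0.064) without unstimulated replicate 2, and by -0.27 ± 0.12 (SE, adjusted p = 0.076) in WT cells. In the peripheral stalk, Atp5j, coupling factor 6, read 12.28, 12.29 and 12.10 in ST2KO IgE samples, against 11.80, 11.74 and 11.48 in unstimulated ones, and 12.20, 12.22 and 12.24 in WT IgE samples, against 11.62, 11.08 and 11.60 in unstimulated ones. Atp5pb, the b subunit, read 11.25, 11.15 and 11.34 in ST2KO IgE samples, against 10.67, 10.54 and 10.73 in unstimulated ones, and 11.31, 11.19 and 11.18 in WT IgE samples, against 10.58, 10.94 and 10.78 in unstimulated ones. IgE arrays lay above unstimulated arrays throughout for both stalk genes. Atp5j changed by 0.55 ± 0.14 (SE, adjusted p = 0.0032) in ST2KO cells and 0.79 ± 0.14 (SE, adjusted p = 1.5e-04) in WT cells, or 0.61 (adjusted p = 7.3e-04) in WT cells without unstimulated replicate 2. Atp5pb changed by 0.60 ± 0.11 (SE, adjusted p = 2.5e-04) in ST2KO cells and 0.46 ± 0.11 (SE, adjusted p = 0.0026) in WT cells.

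Subunit c, whose ring turns as protons pass, is encoded by several genes with the same mature protein, of which 2 were measured. Atp5g3 read 12.98, 13.11 and 12.92 in ST2KO IgE samples, against 12.80, 12.78 and 12.54 in unstimulated ones, and 13.14, 13.15 and 13.08 in WT IgE samples, against 12.70, 12.50 and 12.57 in unstimulated ones. Atp5g2 read 10.16, 9.78 and 10.03 in ST2KO IgE samples, against 10.35, 10.41 and 10.35 in unstimulated ones, and 9.93, 10.04 and 9.99 in WT IgE samples, against 10.31, 9.79 and 10.25 in unstimulated ones. So Atp5g3 was higher after IgE in each genotype, by 0.30 ± 0.11 (SE, adjusted p = 0.031) in ST2KO cells and 0.53 ± 0.11 (SE, adjusted p = 5.9e-04) in WT cells. Atp5g2 changed by -0.38 ± 0.13 (SE, adjusted p = 0.024) in ST2KO cells and -0.13 ± 0.13 (SE, adjusted p = 0.45) in WT cells, or -0.29 (adjusted p = 0.06) in WT cells without unstimulated replicate 2. Leaving out ST2KO unstimulated replicate 3 or ST2KO IgE replicate 1 or 2 ended the ST2KO call of Atp5g3, with adjusted p of 0.056 to 0.16, and leaving out ST2KO unstimulated replicate 2 or ST2KO IgE replicate 2 that of Atp5g2, at 0.065 and 0.13. Atp5md, a small protein of the dimer interface, changed by 0.87 ± 0.28 (SE, adjusted p = 0.016) in ST2KO cells, or 0.77 (adjusted p = 0.063) without unstimulated replicate 2 and 0.79 (adjusted p = 0.058) without IgE replicate 3. In WT cells it changed by 0.48 ± 0.28 (SE, adjusted p = 0.17), or 0.12 (adjusted p = 0.73) without unstimulated WT replicate 2.

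Of the 80 genes 25 had more than 1 kept probe. Their probes differed in sign in 5 genes in ST2KO cells and 3 in WT cells. Ndufb8, an accessory subunit of complex I, was the sharpest case: in a fit of all kept probes, the one used changed by 0.24 (adjusted p = 0.15) in ST2KO cells and 0.36 (adjusted p = 0.028) in WT cells, and its dimmer probe by -0.55 (adjusted p = 0.0008) in ST2KO cells and -0.52 (adjusted p = 0.0014) in WT cells. It was named after its values were seen, and its probes settle no direction, but the probe used is counted among the 32 members, 18 complex I genes and 14 accessory subunits that rose in WT cells with all arrays. Without unstimulated WT replicate 2 its WT call ended, at 0.22 (adjusted p = 0.15).

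**Figure D4:**
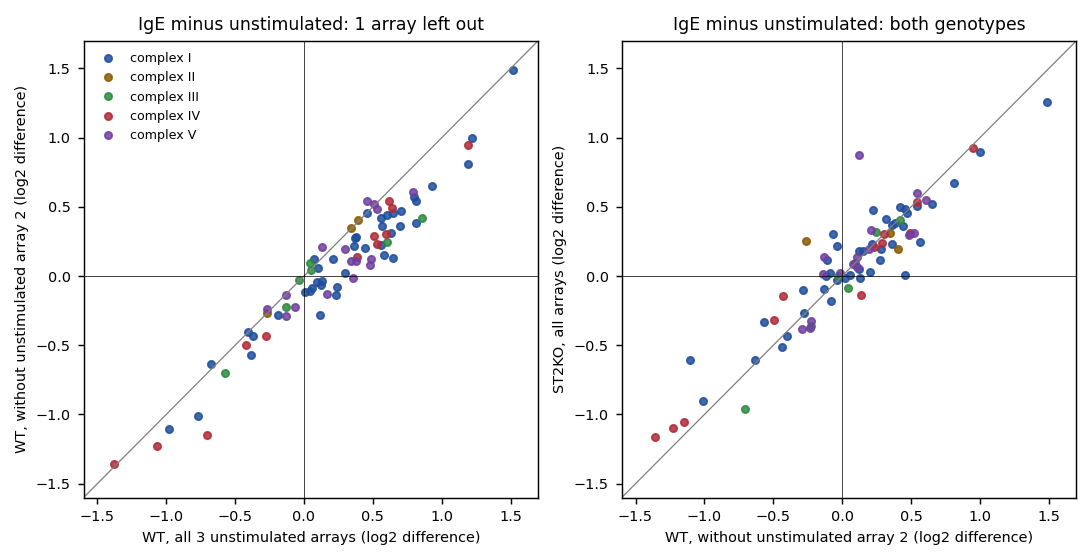
Log2 difference, IgE minus unstimulated, of the 80 members: on the left, WT cells without unstimulated replicate 2 (vertical) against WT cells with all arrays (horizontal), and on the right, ST2KO cells (vertical) against WT cells without that array (horizontal), with the line of equality in grey. On the left most points lie below the line, and the WT median falls to 0.12 without the array, against 0.35 with it; on the right the points lie on both sides of the line.

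Genes that build or feed the chain were counted beside it, to be read against the shares of all genes called. Those shares were 22.8% higher and 26.4% lower in ST2KO cells, and 22.7% higher and 24.3% lower in WT cells. Of 21 protein import genes, which bring nuclear-encoded subunits into mitochondria, 10 rose and 0 fell in ST2KO cells, and 15 rose and 0 fell in WT cells, 10 without unstimulated WT replicate 2. Timm8a1, a small chaperone of the intermembrane space, read 8.33, 8.27 and 8.25 in ST2KO IgE samples, against 6.08, 6.43 and 6.42 in unstimulated ones, and 8.41, 7.86 and 8.32 in WT IgE samples, against 6.33, 6.03 and 6.39 in unstimulated ones. It changed by 1.98 ± 0.16 in ST2KO cells and 1.95 ± 0.16 in WT cells, and its relative Timm9 by 1.80 ± 0.18 in ST2KO cells and 1.94 ± 0.18 in WT cells. Of 18 complex IV assembly genes 9 rose and 3 fell in ST2KO cells, and 8 rose and 2 fell in WT cells, 6 and 3 without that array. The copper chaperone Cox17 changed by 0.84 ± 0.20 in ST2KO cells and 1.31 ± 0.20 in WT cells. The haem A synthesis enzyme Cox10 changed by 0.90 ± 0.11 in ST2KO cells and 1.06 ± 0.11 in WT cells. Lrpprc, which stabilises mitochondrial mRNAs, changed by 1.45 ± 0.14 in ST2KO cells and 1.05 ± 0.14 in WT cells, while the assembly factor Surf1 changed by -0.44 ± 0.14 in ST2KO cells and -0.42 ± 0.14 in WT cells. Of 4 complex III assembly genes 2 rose in ST2KO cells and 3 in WT cells, 1 without that array. The strongest, Ttc19, a factor that clears Rieske protein fragments from complex III, read 9.30, 9.17 and 9.05 in ST2KO IgE samples, against 6.57, 6.30 and 6.54 in unstimulated ones, and 9.27, 8.98 and 9.16 in WT IgE samples, against 6.40, 6.36 and 6.59 in unstimulated ones. The change of Ttc19 was 2.70 ± 0.14 (SE, adjusted p = 1.2e-10) in ST2KO cells and 2.69 ± 0.14 (SE, adjusted p = 1.7e-10) in WT cells.

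Among 14 regulators of mitochondrial biogenesis 4 rose and 3 fell in ST2KO cells, and 6 rose and 3 fell in WT cells, 4 and 3 without unstimulated WT replicate 2. For this set and those below, 49.2% of all genes were called in ST2KO cells and 47.0% in WT cells. Pprc1, a coactivator that works with NRF1, read 8.64, 8.63 and 8.60 in ST2KO IgE samples, against 5.51, 5.25 and 5.39 in unstimulated ones, and 8.49, 8.11 and 8.76 in WT IgE samples, against 5.27, 5.06 and 5.10 in unstimulated ones. Its change was 3.24 ± 0.22 in ST2KO cells and 3.31 ± 0.22 in WT cells. Gabpb1, a subunit of the ETS factor GABP, changed by 2.34 ± 0.14 in ST2KO cells and 2.02 ± 0.14 in WT cells, and Polg, the mitochondrial DNA polymerase, by -1.31 ± 0.17 in ST2KO cells and -1.05 ± 0.17 in WT cells. Of 17 electron carrier and quinone synthesis genes 6 rose and 4 fell in ST2KO cells, and 5 rose and 4 fell in WT cells, 4 and 4 without that array. Cytochrome c, Cycs, read 10.74, 10.95 and 10.99 in ST2KO IgE samples, against 9.41, 9.43 and 9.48 in unstimulated ones, and 10.87, 10.69 and 10.85 in WT IgE samples, against 9.18, 9.24 and 9.38 in unstimulated ones. Cycs changed by 1.45 ± 0.11 in ST2KO cells and 1.54 ± 0.11 in WT cells, Coq7 of quinone synthesis by 1.12 ± 0.13 in ST2KO cells and 1.02 ± 0.13 in WT cells, and the sulphide oxidising enzyme Sqor by -1.18 ± 0.17 in ST2KO cells and -0.94 ± 0.17 in WT cells. Of 14 citric acid cycle genes 5 rose and 1 fell in ST2KO cells, and 6 rose and 1 fell in WT cells with or without that array. Idh3a changed by 0.89 in ST2KO cells and 0.81 in WT cells, and Idh3g, another subunit of the same enzyme, by -0.38 in ST2KO cells and -0.54 in WT cells.

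Of the subunits encoded by mitochondrial DNA 7 were tested, of which 0 rose and 1 fell in each genotype. That gene, ND4, a proton-pumping core subunit of complex I, read 12.78, 12.94 and 12.86 in ST2KO IgE samples, against 13.20, 13.36 and 13.38 in unstimulated ones, and 12.86, 12.57 and 12.98 in WT IgE samples, against 13.49, 13.47 and 13.28 in unstimulated ones. It changed by -0.45 ± 0.11 in ST2KO cells and -0.61 ± 0.11 in WT cells. The others, ATP6, COX2, CYTB, ND1, ND4L and ND5, changed by 0.12, 0.15, 0.16, 0.30, 0.22 and 0.29 in ST2KO cells and by -0.23, 0.11, -0.01, 0.22, 0.18 and -0.33 in WT cells, in that order, and none passed. Without unstimulated WT replicate 2 the WT changes of ND5, ND4L and CYTB were -0.42 (adjusted p = 0.034), 0.056 and 0.023, so that ND4 and ND5 were called lower. The ND6 probe was above background on 0 arrays. Counts in this paragraph stand beside 49.2% of all genes called in ST2KO cells and 47.0% in WT cells. Of 6 complex I assembly genes outside the Ndufaf series 1 rose and 1 fell in ST2KO cells, and 3 rose and 1 fell in WT cells. Of 4 complex II assembly genes 0 passed in ST2KO cells, and 2 rose and 1 fell in WT cells. Of 3 complex V assembly genes 0 passed in ST2KO cells and 1 rose in WT cells, and of 5 ADP, ATP and phosphate carriers 1 rose in each genotype, Vdac2 of the outer membrane, by 1.29 in ST2KO cells and 1.14 in WT cells. Without that array the WT counts were 1 higher and 1 lower for the assembly of complex I and of complex II, and 1 higher and 0 lower for that of complex V and for the carriers. Of 5 mitochondrial antioxidant genes 4 rose and 1 fell in each genotype, in WT cells also without that array, the fall being Gpx4, which detoxifies lipid peroxides, at -0.77 in ST2KO cells and -0.67 in WT cells.

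No member passed the test after IL-33 in either genotype. In ST2KO cells 0 of 80 passed (limma, 1 at an unadjusted p under 0.05, lowest adjusted p 1.0), as did 0% of all genes. In WT cells 0 of 80 passed (0 at an unadjusted p under 0.05, lowest adjusted p 0.37), beside 3.78% of all genes, 3.01% higher and 0.772% lower. The median log2 change of the members was -0.11 in ST2KO cells and 0.10 in WT cells, or -0.08 in WT cells without unstimulated replicate 2. The 95% confidence interval of the change stayed within 2-fold either way for 79 of 80 members in ST2KO cells and 78 of 80 in WT cells.

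Set directly against IgE in WT cells, IL-33 left 11 members higher and 19 lower, beside 21.8% and 21.2% of all genes (43.0% in all). This comparison shares the WT IgE arrays with that of IgE and unstimulated WT cells, and the WT IL-33 arrays with that of IL-33 and unstimulated WT cells. Cox7a2l read 12.04, 11.98 and 12.18 in WT IL-33 samples, against 11.10, 10.71 and 10.65 in WT IgE samples, a difference of 1.24 ± 0.13 (SE, adjusted p = 7.7e-07). Ndufaf4 read 6.92, 6.74 and 7.18 in WT IL-33 samples, against 8.70, 8.18 and 8.32 in WT IgE samples, a difference of -1.46 ± 0.15 (SE, adjusted p = 6.6e-07). After IL-33 the level of Cox6a2 was higher, at least 1.90-fold (adjusted p = 8.0e-05), Cox7a1 higher by 1.16 ± 0.28, and Ndufb6 and Cox7a2 differed by -0.97 ± 0.17 and -0.96 ± 0.22. The differences here use no unstimulated array, but the error is estimated over all 18 arrays, and without unstimulated WT replicate 2 the number called was 38, against 30 with it.

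**Figure D5:**
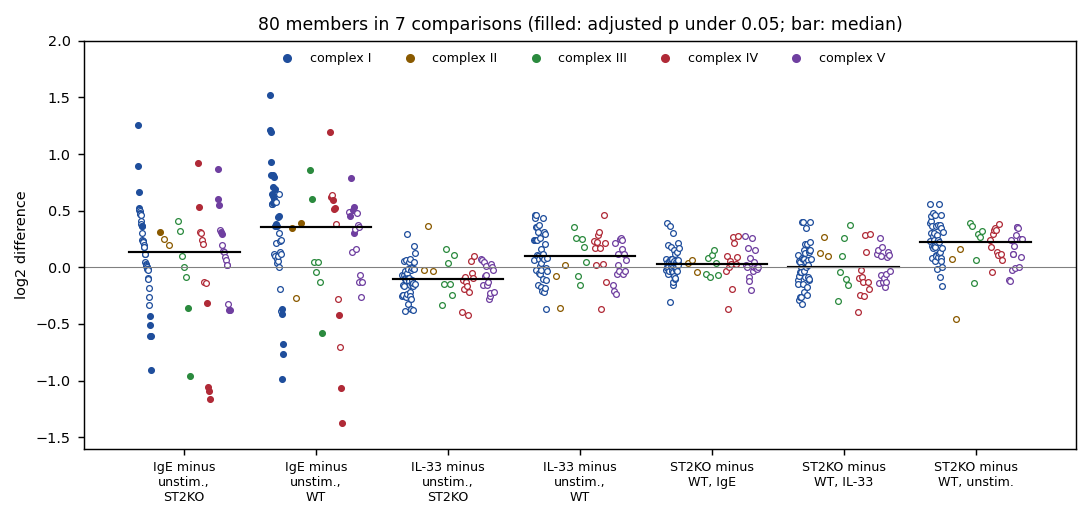
Log2 differences of the 80 members in 7 comparisons, by complex (colour) with the median as a bar; filled points passed the test at an adjusted p under 0.05. Filled points appear in the 2 IgE comparisons alone, and the medians of the other 5 lie between -0.11 and 0.22.

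No member was called different between the genotypes in any of the 3 states. After IgE 0 of 80 members differed between ST2KO and WT cells (4 at an unadjusted p under 0.05, limma), beside 0.0201% of all genes. After IL-33 0 differed (7 at an unadjusted p under 0.05), beside 6.07% of all genes, 2.32% higher and 3.75% lower. With array weights 3 members passed after IL-33, higher in ST2KO cells: Ndufaf5 by 0.41, Ndufb5 by 0.45 and Uqcrq by 0.47, named after their values were seen. In unstimulated cells 0 differed (13 at an unadjusted p under 0.05, lowest adjusted p 0.55), beside 0% of all genes. There 69 of 80 members were higher in ST2KO cells, with a median of 0.22, and without unstimulated WT replicate 2 the count was 50 and the median 0.04.

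No member's response to a stimulus was called different between genotypes. For IgE 0 of 80 members passed the test of the difference (2 at an unadjusted p under 0.05, lowest adjusted p 0.98), with 0% of all genes called. The median difference, ST2KO minus WT, was -0.20, and without unstimulated WT replicate 2 it was 0.00096. The widest with all arrays were Ndufa3 at -0.66 ± 0.48, and Sdhd at 0.52 ± 0.29. Without that array the difference was -0.14 for Ndufa3 and 0.52 for Sdhd. For IL-33 0 of 80 passed (5 at an unadjusted p under 0.05, lowest adjusted p 0.26), beside 1.76% of all genes (0.180% higher and 1.58% lower), with a median of -0.21, or -0.04 without that array. Intervals for a difference of responses stayed within 2-fold for 63 of 80 members for IgE and 54 of 80 for IL-33, so that moderate differences could not be detected with 3 arrays a group.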

How the data were processed

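Total RNA of 18 samples was hybridised to Illumina bead arrays, 1 array a sample, and groups and replicate numbers came from the labels. Per the file headers, the authors' deposited table holds for each array the probes' average intensity, linear and not normalized. A detection p-value stands beside each intensity, per the file headers. The authors' processed values, deposited separately, are on a log2 scale, and whether a constant was added to them is unknown. No source used here names the authors' software. The lowest intensities show that background had not been subtracted. Between 14587 and 15741 of 45281 probes were detected per array, and precision is limited by 3 arrays a group.

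Intensities were background corrected from the detection p-values, given an offset of 16, quantile normalized and taken to log2 by the neqc function (R 4.3.3, limma 3.58.1). The offset and the normexp step compress differences of dim probes. Probes were named by the platform annotation (1 symbol only), and all 135 member probes had an identifier in the RefSeq table, with 0 symbols changed. Atp5g1, Cox8a and Ndufa4l2 had no probe with that symbol and were not analysed here. The brightest kept probe stood for a gene, chosen over all arrays. Group means were fitted to all 18 arrays with lmFit, and 10 contrasts were tested with eBayes and Benjamini-Hochberg adjustment over 9973 genes, at 0.05. The members, the lists and the rule for genes described by array were chosen with earlier results of these data known. That rule took, per complex and IgE comparison, the 3 largest rises and falls that passed, set catalytic and isoform genes whatever their test, and 2 each way per other list. It also asked for the brightest and dimmest member, which is not given because levels of different probes cannot be compared. The procedure was tested on simulated data. Promoter windows came from RefSeq on GRCm38.p6.

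Same-numbered samples deviated together (every pair's correlation above 0.1) among all 3 WT groups, with correlations of 0.14 to 0.59, and between ST2KO IgE and unstimulated samples (0.12 to 0.21), and not for the ST2KO IL-33 group. The alternatives covered background, scaling, the authors' values, filters, probe choice, variance settings, array weights, the replicate block and left-out arrays. Leaving out the 3 arrays that stand apart was added after the data were seen.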

Additional observations from a re-analysis of the deposited data

How the results depend on the processing

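Depth here means signal over background: 12 kept member probes were not detected on all arrays, and for Cox6a2 after IgE only a bound is given. The number of members called after IgE in ST2KO cells was 28, and 21 to 32 with 1 array left out. In WT cells it was 41, and 30 to 44 with 1 array left out. It was 25 when only the compared groups were fitted and 27 without the 3 WT arrays numbered 2. For IL-33 against IgE in WT cells it was 30, and 23 to 38 with 1 array left out. Between ST2KO and WT cells after IL-33 it was 0, and 3 with array weights. The cause of these shifts was not tested. All other counts kept within 1.5 times their value under each alternative run. The count of IL-33 against unstimulated cells, in each genotype, stayed at 0 under each alternative. Where the replicate number entered as a block, 31 members were called after IgE in ST2KO cells and 48 in WT cells. The block within genotype gave 31 and 49. Without the 3 arrays that stand apart, chosen after seeing the data, 37 were called in WT cells. With the mean of its probes in place of the brightest, the WT change of Ndufb8 reversed to -0.078 (adjusted p = 0.55). Median scaling lowered the all-gene median change to -0.11, against -0.01, for IL-33 in ST2KO cells. Of the calls after IgE, 17 of 28 in ST2KO cells and 24 of 41 in WT cells ended under no alternative. No chip or scan date is in the file headers, so a block by chip was not run.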
